A study of Mus musculus with 6 samples.

Results

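The LY6 surface antigen family was taken as 7 genes chosen by symbol (Ly6a, Ly6c1, Ly6c2, Ly6d, Ly6e, Ly6g and Ly6i) of the 34199 gene symbols in the count tables. Of these, 6 had at least 1 read in some library, and 2 (Ly6c2 and Ly6e) were abundant enough to be tested. Expression was measured by bulk RNA-seq in HOXA9-immortalized granulocyte-macrophage progenitors (iGMPs), C57Bl/6 mouse bone marrow cells labelled Lys-GFP-ER-HoxA9. All groups carried a lysozyme GFP reporter and HOXA9 fused to an estrogen receptor domain, which keeps the cells immature as long as estradiol (150 ng/ml) is present. CAF-1 OFF cells received 500 µM IPTG for 24 h to express a Chaf1b short hairpin RNA, control cells were cultured with IPTG for 24 h (concentration not given in the labels), and HOXA9 OFF cells were washed free of estradiol for 24 h. Whether HOXA9 OFF cells received IPTG, and which clone each library came from, was not given in the labels. Each group had 2 libraries. The labels did not name separate cultures, so p-values measure only the spread between these libraries, which may be technical.

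LY6 proteins are small, disulfide-rich proteins held on the outer face of the plasma membrane by a glycosylphosphatidylinositol (GPI) anchor. In mouse blood, Ly6c (encoded by Ly6c1 and Ly6c2) marks inflammatory monocytes and is also carried by neutrophils, whereas Ly6g marks neutrophils. The widely used Gr1 antibody RB6-8C5 binds Ly6g and also recognizes Ly6c. Ly6a is Sca-1, the stem cell antigen that granulocyte-macrophage progenitors lack, and Ly6d marks lymphoid progenitors on the path to B cells. Ly6e is expressed in many tissues and is interferon-inducible, as are Ly6a and the Ly6c genes.

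All 7 genes lie on chromosome 15 of NCBIM37, the assembly that mm9 names, within 396.7 kb. All 7 are annotated as protein-coding, and none is overlapped by another annotated gene on either strand. From low to high coordinate, Ly6d (chr15:74592486-74593997, minus strand) is followed by Ly6e (chr15:74785481-74790335, plus strand), Ly6i (chr15:74810242-74813860, minus), Ly6a (chr15:74825308-74828064, minus), Ly6c1 (chr15:74875447-74879260, minus), Ly6c2 (chr15:74938590-74942114, minus) and Ly6g (chr15:74987123-74989169, plus). The 6 genes other than Ly6d sit within 203.7 kb. In the annotation used here, the Ly6g model holds only 336 bases, all of them coding. The annotation behind the counts was not given, so whether reads from its UTRs were assigned to it is not known.

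Ly6c1 and Ly6c2 are near-identical copies, and their sequences set how far reads can be told apart. Their coding sequences, each of 396 bases, matched at 387 bases (97.7%), whereas the other pairs among Ly6a, Ly6c1, Ly6c2, Ly6g and Ly6i matched at 76.2% to 86.4% of aligned bases. The coding part of their last exon is shown as an example of how few bases separate the copies. Both sequences run 5′ to 3′ on the minus strand of NCBIM37, and capitals mark the bases that differ.
Ly6c2 (chr15:74938976-74939181): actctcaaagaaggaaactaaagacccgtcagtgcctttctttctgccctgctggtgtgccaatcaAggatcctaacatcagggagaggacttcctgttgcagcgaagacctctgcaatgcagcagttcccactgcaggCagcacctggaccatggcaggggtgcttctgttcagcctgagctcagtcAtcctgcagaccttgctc
Ly6c1 (chr15:74875835-74876040): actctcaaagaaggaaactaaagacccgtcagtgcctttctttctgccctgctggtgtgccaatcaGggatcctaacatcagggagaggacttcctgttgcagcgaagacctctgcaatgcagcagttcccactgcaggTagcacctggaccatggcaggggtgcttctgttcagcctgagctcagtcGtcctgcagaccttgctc
The exons differed at 3 of 206 bases, and the longest identical run was 72 bases. The identical runs of 100 bases that the Ly6c1 and Ly6c2 transcripts share are thus not contained in this stretch.

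The read length of these libraries was not given in the sources used here, so the share of each transcript that recurs elsewhere was computed for stretches of 50, 75 and 100 bases. Of the 50-base stretches of Ly6c2, 34.1% also occurred in another gene's transcript or elsewhere in the genome, falling to 22.7% at 75 bases and 16.4% at 100 bases. For Ly6c1 the shares were 31.9%, 21.4% and 15.4%. All of the shared stretches of Ly6c1, and all but 3 of those of Ly6c2 at 50 bases, were shared between these copies. Ly6a (13.9%) and Ly6i (12.1%) shared stretches at 50 bases but only 1.61% and 1.37% at 75 bases, Ly6g shared 0.697% at 50 bases, and Ly6d and Ly6e shared 0 at any length. Reads from shared stretches align to more than 1 place and are not counted. In this respect the counts of Ly6c1 and Ly6c2 are lower bounds, whereas most of each transcript was distinguishable. Whether reads of 1 copy were assigned to the other at the few differing bases was not tested. Such reads would raise a count.

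**Figure D1:**
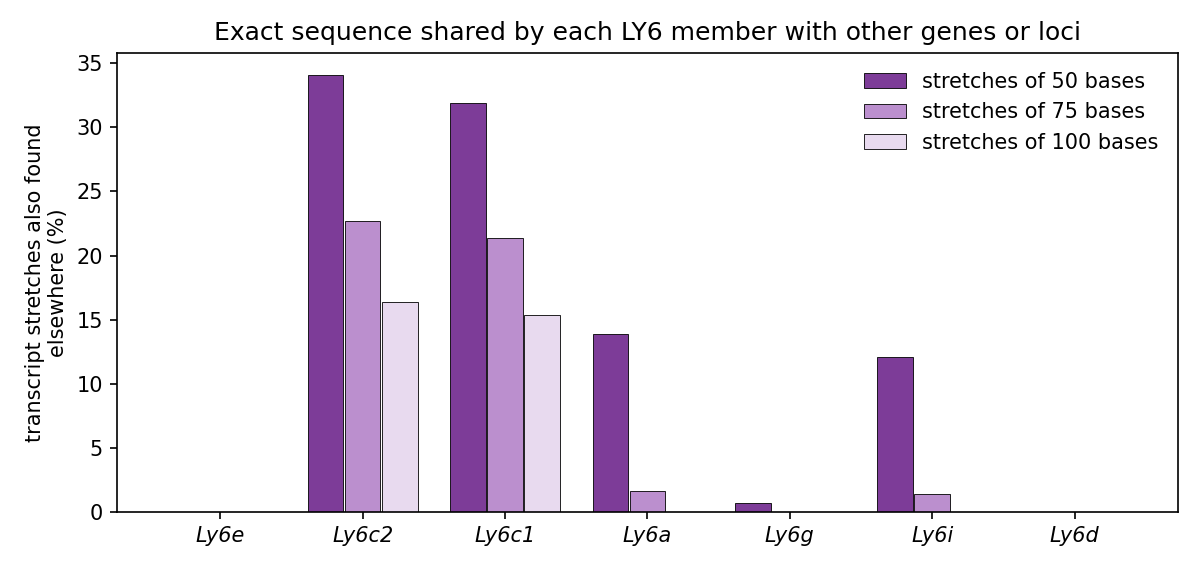
Percentage of the exact 50-, 75- and 100-base stretches of each LY6 member's annotated transcripts (x axis) that also occur in another gene's transcript or elsewhere in the genome (y axis, percent). Ly6c2 (34.1% at 50 bases) and Ly6c1 (31.9%) stand highest, and Ly6e and Ly6d have no bar.

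Sequences upstream of the genes were available for 3 members, from RefSeq on GRCm38.p6, a different build from the counts, as windows from 250 bases before to 50 bases after an annotated start. They are shown because Ly6c2 rose in HOXA9 OFF and most reads of Ly6g came from HOXA9 OFF. Capitals mark GAGGAAGT, searched on both strands, a sequence bound by PU.1, the transcription factor of myeloid cells.
Ly6c2 (GRCm38.p6 chr15:75111922-75112221, minus strand): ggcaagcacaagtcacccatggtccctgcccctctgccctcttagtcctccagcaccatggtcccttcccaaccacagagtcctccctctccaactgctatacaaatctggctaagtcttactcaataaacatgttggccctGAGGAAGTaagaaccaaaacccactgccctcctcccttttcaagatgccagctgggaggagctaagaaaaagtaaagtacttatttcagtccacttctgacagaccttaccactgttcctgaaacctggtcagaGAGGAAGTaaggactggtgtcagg
Ly6g (GRCm38.p6 chr15:75155079-75155378, plus strand): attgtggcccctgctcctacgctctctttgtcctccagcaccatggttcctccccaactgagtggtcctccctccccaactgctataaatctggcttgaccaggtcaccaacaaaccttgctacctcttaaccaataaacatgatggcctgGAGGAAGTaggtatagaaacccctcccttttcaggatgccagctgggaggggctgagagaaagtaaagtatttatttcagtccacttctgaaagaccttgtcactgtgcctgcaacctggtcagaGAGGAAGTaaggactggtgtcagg
Ly6c1 (GRCm38.p6 chr15:75048614-75048913, minus strand): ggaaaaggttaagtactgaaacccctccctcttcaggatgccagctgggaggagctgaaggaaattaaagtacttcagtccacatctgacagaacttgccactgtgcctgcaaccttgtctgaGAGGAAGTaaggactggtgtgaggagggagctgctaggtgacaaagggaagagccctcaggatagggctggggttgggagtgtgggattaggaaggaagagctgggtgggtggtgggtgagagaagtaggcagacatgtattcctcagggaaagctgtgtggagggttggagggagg
The Ly6c2 window held 2 matches, whose first bases lay at -108 and 26 relative to the annotated start, and the Ly6g window held 2, at -99 and 26. The second window of Ly6c2 held the same 2 matches, whereas the other Ly6g window, which starts further upstream, held 1, at -31. The Ly6c1 window held 1, at -127, and a second Ly6c1 window, upstream of that one, held 0. Of all 32851 windows of this length, 3.2% held the motif at least once and 0.0609% held it at least 2 times, a count made after these matches were seen. The members arose by duplication, so their matches are not independent. The other motifs searched on both strands were TTGCNNAA (C/EBP, in 10.8% of all windows), CCGGAAGT (ETS, sharing its last 6 letters with the PU.1 motif, in 3.89%), TGATTTAT (HOX with PBX, in 0.977%), GAAANNGAA (interferon-stimulated response element, in 8.56%) and TTCNNNGAA (gamma-activated site, in 8.3%). Their only match in the 6 windows of the 3 genes was a TTGCNNAA at -232 in the other Ly6g window, which overlaps the one shown.

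Reads assigned to genes ranged from 16773560 to 25170898 per library, so that 3 counts corresponded to between 0.118 and 0.182 CPM (read counts per library size, with TMM scaling between libraries). Replicate libraries differed by more than sampling noise in every group (chi-square per degree of freedom of at least 22.1). Chaf1b, the target of the hairpin, was at 17.8 and 12.1 CPM in CAF-1 OFF against 90.0 and 105 CPM in control (log2 fold change -2.71 ± 0.20 SE, FDR 0.0198). It was also lower in HOXA9 OFF (64.6 and 61.4 CPM, log2 fold change -0.63 ± 0.18, FDR 0.0396). The summed level of 12 GMP markers lay between 11700 and 17300 CPM in the 6 libraries. Of the 11 tested, 5 fell and 2 rose in HOXA9 OFF against control (8.97% and 13% of all tested genes were called lower and higher). In CAF-1 OFF against control 0 were called, where 0.0321% of all tested genes passed. There, 4 had an unadjusted edgeR p under 0.05 (36.4%, beside 10.7% of all tested genes). The genes that fell in HOXA9 OFF included the cytokine receptors Flt3 (log2 fold change -6.05 ± 0.25, FDR 0.000102) and Kit (-1.16 ± 0.16, FDR 0.00366). Among 6 T cell markers, 3 were at 0 in all libraries, Cd3d and Cd4 had at most 2 reads, and Lck, a kinase of lymphocytes, was at 0.338 to 4.7 CPM. Among 5 B cell markers, Ebf1 was at 94 to 121 CPM in control and CAF-1 OFF and at 2.51 and 3.03 CPM in HOXA9 OFF, Cd79b was at 29.2 to 55.8 CPM in all libraries, and Pax5 had at most 2 reads. The values of FDR here are edgeR quasi-likelihood p-values with Benjamini-Hochberg adjustment over the 12460 genes tested, and a gene was called at a change of at least 1.5-fold and FDR under 0.05.

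Expression of the family came almost entirely from Ly6e and Ly6c2. Ly6e took 79.52% to 97.05% of the reads of the 7 members in a library and Ly6c2 took 2.91% to 20.4%, whereas the other 5 genes together had 4 to 20 reads per library. Per kb of exon, the mean control level was 239 ± 15.6 CPM (SD, n = 2) for Ly6e and 29.0 ± 10.4 CPM for Ly6c2. In control, Ly6e ranked at number 203 of the 12460 tested genes by CPM and Ly6c2 at number 7120. The ratio of Ly6c2 to Ly6e was lowest in control, where 5.50 and 2.99 Ly6c2 reads were found per 100 Ly6e reads, against 12.1 and 25.6 in CAF-1 OFF and 13.2 and 9.32 in HOXA9 OFF. In both OFF groups, each library therefore had a higher share of Ly6c2 than either control library.

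**Figure D2:**
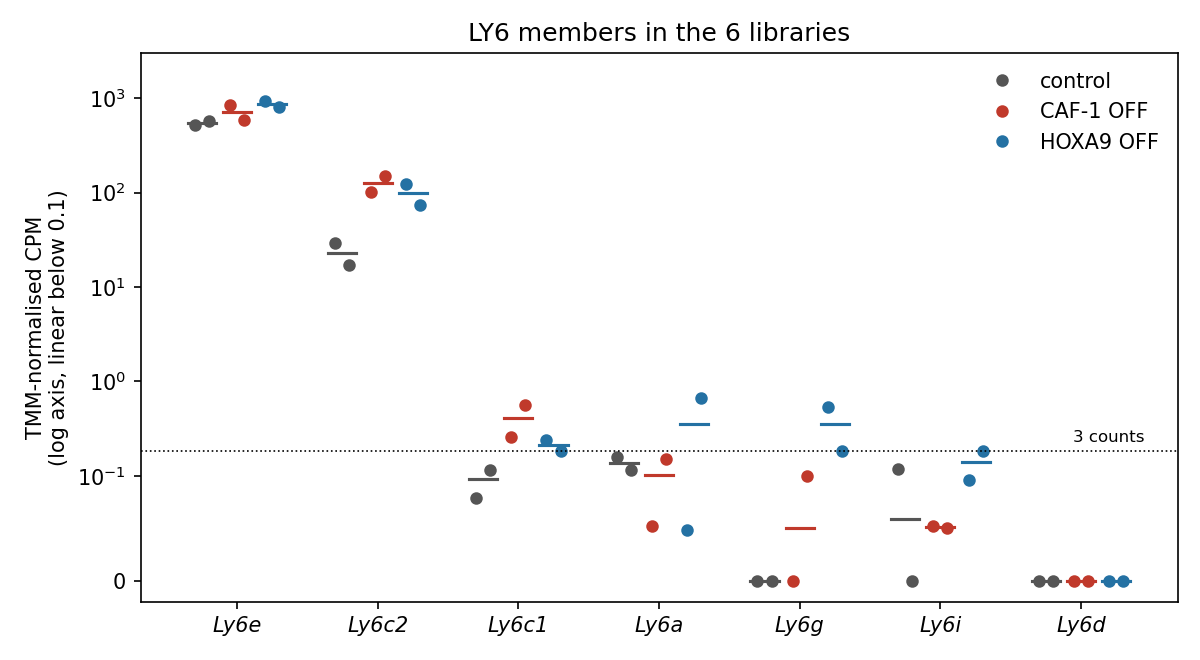
TMM-normalised CPM (y axis, log scale, linear below 0.1) of the 7 LY6 members (x axis) in each of the 6 libraries. Points are libraries, short lines are means of 2 libraries, and the dotted line is the level of 3 counts in the library where it is highest (0.182 CPM, HOXA9 OFF replicate 2). Ly6e and Ly6c2 lie well above that line, and Ly6c2 separates control (17.2 and 28.9 CPM) from both OFF groups.

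**Figure D3:**
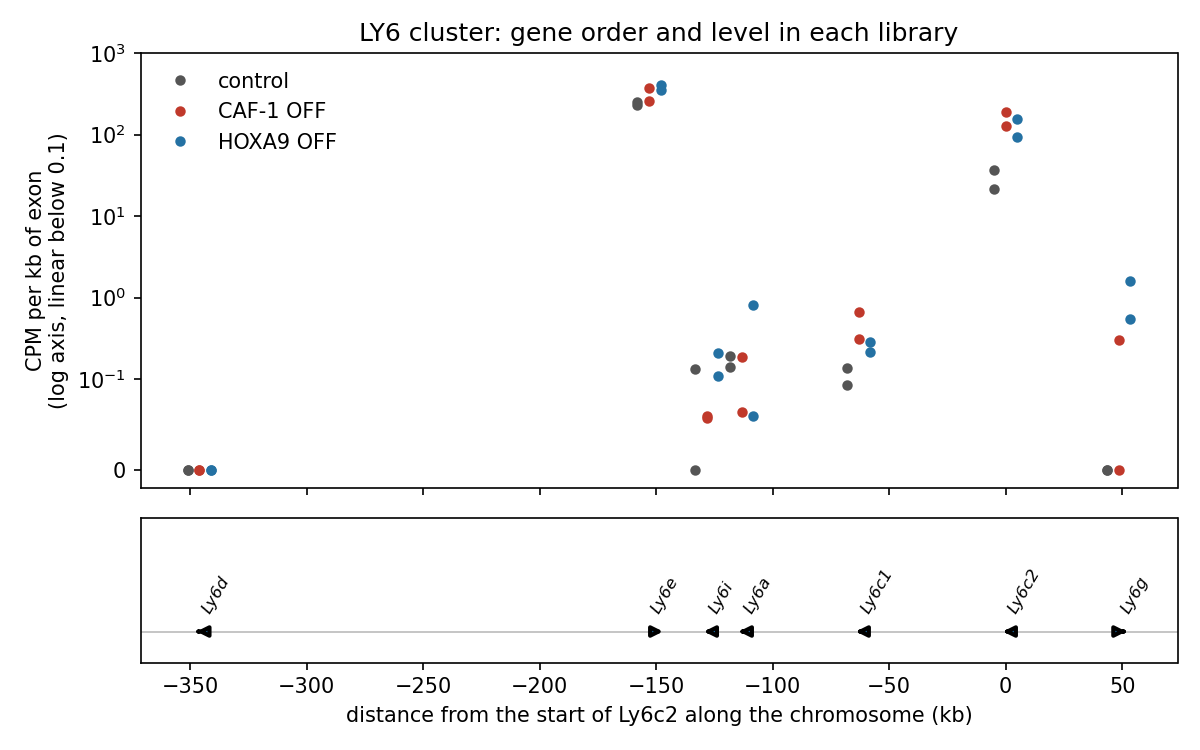
CPM per kb of annotated exon (upper panel, log scale, linear below 0.1) of the LY6 members in each library, placed by distance from the start of Ly6c2 along the chromosome in kb (x axis), with gene order and strand as arrows below. The abundant genes, Ly6e and Ly6c2, have low-count genes (Ly6i, Ly6a and Ly6c1) between them.

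Ly6c2, the main Ly6c gene in these cells, had the larger difference from control of the 2 tested members in both OFF groups. It was at 28.9 and 17.2 CPM in control (736 and 297 reads), 122 and 74.6 CPM in HOXA9 OFF (2533 and 1231 reads), and 102 and 150 CPM in CAF-1 OFF (1959 and 2972 reads). All 4 OFF libraries exceeded both control libraries, and the OFF groups overlapped each other. In HOXA9 OFF against control, Ly6c2 rose by a log2 fold change of 2.08 ± 0.34 (4.24-fold, FDR 0.00582) and was called. This call held in each fit that left out 1 library, with log2 fold changes of 1.68 to 2.51. Over all tested genes, 22.0% were called in this comparison in either direction, and 13% were called higher in HOXA9 OFF. In bulk samples, more cells expressing a gene and more RNA per cell cannot be told apart.

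In CAF-1 OFF against control, the Ly6c2 difference was of similar size, at a log2 fold change of 2.44 ± 0.35 (5.43-fold), but its FDR of 0.0976 missed the threshold. Of the 2 members tested, 0 were called in this comparison, in which 0.0321% of all tested genes (4 genes) passed. At an unadjusted p under 0.05 there was 1 (Ly6c2), beside 10.7% of all tested genes. The unadjusted edgeR quasi-likelihood p of Ly6c2 was 0.000225, lower than its 0.000548 in HOXA9 OFF against control, where it passed. The FDR also depends on the p-values of all tested genes, of which 41.9% were under 0.05 in that HOXA9 OFF comparison. After CAF-1 suppression, the call on Ly6c2 depended on the test, the expression filter and the block. It was called by the DESeq2 Wald test (FDR 5.72e-11), the edgeR exact test (FDR 7.5e-09) and the quasi-likelihood test with no expression filter (FDR 7.27e-14), settings that called 192, 236 and 378 genes in all. It was also called by the quasi-likelihood test with a replicate block of crossed numbers (FDR 0.00121, 71 genes in all), a pairing chosen after the data were seen, and not with the block of the numbers as labelled (FDR 0.142). Without CAF-1 OFF replicate 1, CAF-1 OFF replicate 2, control replicate 1 or control replicate 2, the log2 fold change was 2.69, 2.15, 2.87 and 2.13, with the same direction each time and an FDR that missed the threshold (0.0829 to 0.536 over fits without each of the 6 libraries). CAF-1 OFF against HOXA9 OFF gave 0.36 ± 0.32 for Ly6c2 (1.28-fold, FDR 0.447), a difference not detectable beyond the spread between libraries, with values of 0.04 to 0.77 when 1 library was left out. The comparisons with control share the control libraries, so they are not independent of each other.

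Summing Ly6c1 with Ly6c2, or all members other than Ly6d and Ly6e, left these values in place, as the read counts alone ensured. Ly6c1 had 0.197% to 0.673% of the reads of Ly6c2 in the same library. The members other than Ly6c2 and Ly6e together had 4 to 20 reads per library. Reads from stretches shared by the copies are missing from the sums too, so the sums cannot show what those reads would change. The log2 fold changes of the Ly6c1 and Ly6c2 sum were 2.44 ± 0.34 in CAF-1 OFF (FDR 0.0977) and 2.08 ± 0.34 in HOXA9 OFF (FDR 0.0058).

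Ly6e, the most abundant member, differed less between groups. It was at 525 and 576 CPM in control, 924 and 800 CPM in HOXA9 OFF, and 844 and 588 CPM in CAF-1 OFF. Both HOXA9 OFF libraries lay above both controls, and the higher CAF-1 OFF library lay within the HOXA9 OFF range while the lower one was close to control. In HOXA9 OFF against control, Ly6e rose by a log2 fold change of 0.65 ± 0.18 (1.57-fold, FDR 0.0348), just over the 1.5-fold minimum. The call was lost without control replicate 1 (0.57, FDR 0.158), control replicate 2 (0.71, FDR 0.11), HOXA9 OFF replicate 1 (0.53, FDR 0.169) or HOXA9 OFF replicate 2 (0.75, FDR 0.0635). It was also lost when libraries were scaled by library size alone (0.56, FDR 0.046), where the change was under 1.5-fold. The log2 fold change between CAF-1 OFF and control was 0.38 ± 0.18 (1.30-fold, FDR 0.514), and it was 0.09 without CAF-1 OFF replicate 1 and 0.63 without CAF-1 OFF replicate 2. CAF-1 OFF against HOXA9 OFF gave -0.27 ± 0.18 (FDR 0.298), ranging from -0.55 without CAF-1 OFF replicate 1 to -0.01 without CAF-1 OFF replicate 2. Of the 2 tested members, 0 were called in that comparison, against 22.1% of all tested genes.

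**Figure D4:**
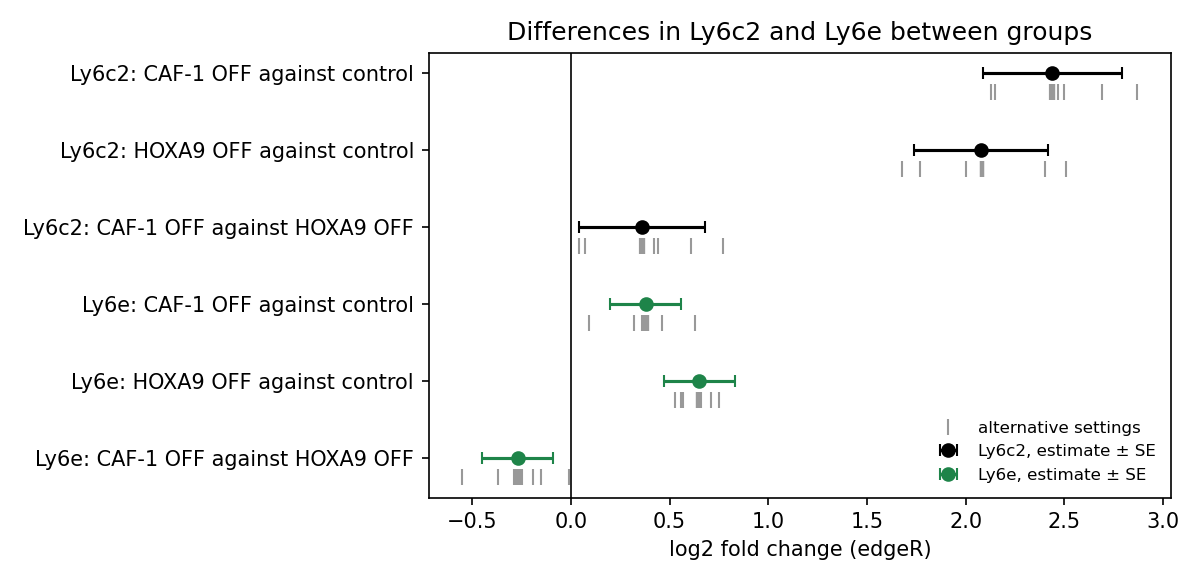
log2 fold change (x axis) of Ly6c2 and Ly6e in the 3 comparisons (y axis). Points with bars are the edgeR estimate ± SE, and grey ticks are the values under other settings and without each library. Ly6c2 lies at 2.44 and 2.08 against control in CAF-1 OFF and HOXA9 OFF, and near 0 between the OFF groups (0.36 ± 0.32), whereas Ly6e stays below 1 throughout.

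Ly6c1, the second Ly6c gene, had 2 and 2 reads in control, 5 and 11 in CAF-1 OFF and 5 and 3 in HOXA9 OFF. Its reads amounted to 0.197% to 0.673% of those of Ly6c2 in the same library, although the copies have similar shares of distinguishable sequence. Whether some of them were Ly6c2 reads assigned to the wrong copy was not tested. Summed over the libraries of a group, Ly6c1 had 16 reads in CAF-1 OFF against 4 in control, a ratio of 4.38 with an exact 95% Poisson interval of 1.41 to 18.0. With spread between libraries included, edgeR with no filter gave a log2 fold change of 2.03 ± 1.08 (FDR 0.589), which was not called. The intervals here cover only the error of counting, since copies made by PCR do not count as separate molecules.

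Ly6g, the neutrophil antigen, was at 0 in both control libraries, at 0 and 2 reads in CAF-1 OFF, and at 11 and 3 reads in HOXA9 OFF. Against the 3 counts that a total of 0 allows over the control group, HOXA9 OFF was at least 5.35-fold higher at its observed total, and at least 2.93-fold higher at the lower 95% Poisson limit of that total. The 3 reads of HOXA9 OFF replicate 2 alone are no more than that floor and give no fold, so the bound rests on HOXA9 OFF replicate 1. Ly6g was too low for the expression filter, and with no filter, edgeR gave FDR 0.0316 in HOXA9 OFF against control and 0.88 in CAF-1 OFF against control. Even in HOXA9 OFF, its level was 0.376 CPM over the group (95% Poisson interval 0.206 to 0.631).

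Ly6a, which encodes Sca-1, had 4 and 2 reads in control, 1 and 3 in CAF-1 OFF and 1 and 11 in HOXA9 OFF. The 11 reads came from HOXA9 OFF replicate 2, and the other libraries had at most 4. The same library stood apart for Siglech, a marker of plasmacytoid dendritic cells, with 49 reads against 2 in HOXA9 OFF replicate 1 and 0 elsewhere, and for Klrd1, a receptor of NK cells, with 79 reads against 16 in HOXA9 OFF replicate 1 and at most 5 elsewhere. Their part in the Ly6a count was not tested. Ly6i, a close relative of Ly6a, had 3 and 0 reads in control, 1 and 1 in CAF-1 OFF and 2 and 3 in HOXA9 OFF. No difference in Ly6a or Ly6i was detectable at this depth, as the ratios to control had intervals that included 1, from 0.797 to 7.45 for Ly6a and from 0.372 to 12.3 for Ly6i in HOXA9 OFF. Ly6d, the lymphoid marker, had 0 reads in every library, so that its level over a group could be up to 0.0703 CPM (control), 0.0769 CPM (CAF-1 OFF) or 0.0806 CPM (HOXA9 OFF).

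Beyond these members, 31 other genes encoding LY6/uPAR domain proteins were in the tables, and 18 of them had 0 reads throughout. Of the 6 tested, 2 rose in HOXA9 OFF against control and 0 fell (33.3% called, beside 22.0% of all tested genes), which with 6 genes is close to the background. Cd177, a neutrophil surface protein, went from 0.471 and 0.639 CPM in control to 9.79 and 6.55 CPM in HOXA9 OFF (log2 fold change 3.89 ± 0.40, FDR 0.00138). It was at 1.30 and 0.911 CPM in CAF-1 OFF (1.00 ± 0.41 against control, FDR 0.453). Plaur, the urokinase receptor, was at 20.3 and 16.7 CPM in control, 57.1 and 46.8 CPM in HOXA9 OFF (1.49 ± 0.16, FDR 0.00162), and 29.1 and 26.7 CPM in CAF-1 OFF (0.59 ± 0.16, FDR 0.293). Both stood lower in CAF-1 OFF when compared with HOXA9 OFF directly, at log2 fold changes of -2.88 ± 0.37 for Cd177 (FDR 0.00287) and -0.90 ± 0.16 for Plaur (FDR 0.00791). Ly6c2 and Ly6e were not called in that comparison. Between CAF-1 OFF and control, 0 of the 6 genes were called and 2 had an unadjusted edgeR p under 0.05, as did 10.7% of all tested genes.

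The GPI anchor is built in the endoplasmic reticulum by the PIG proteins, and 28 of 30 genes of that pathway were tested. Of these, 0 were called against control in either OFF group, and the median log2 fold changes were -0.03 (HOXA9 OFF) and 0.00 (CAF-1 OFF), beside 0.00 over all tested genes in both. At an unadjusted edgeR p under 0.05 there were 9 in HOXA9 OFF against control (32.1%, beside 41.9% of all tested genes) and 3 in CAF-1 OFF (10.7%, beside 10.7%). In CAF-1 OFF against HOXA9 OFF, 3 genes were higher (Piga, Pigf and Pigw) and 2 were lower (Pigv and Mppe1), with log2 fold changes between -0.74 and 0.86. The share called, 17.9%, was no higher than the 22.1% of all tested genes. Piga, a subunit of the enzyme of the first step, was at 28.1 and 31.5 CPM in HOXA9 OFF, against 47.1 and 45.3 CPM in CAF-1 OFF (0.63 ± 0.16, FDR 0.0242).

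Ly6e, Ly6a and the Ly6c genes respond to interferon, and 22 of 26 interferon-stimulated genes were tested. In HOXA9 OFF against control, 12 were called higher and 1 lower (59.1% called, beside 22.0% of all tested genes). Of those 12, 6 (Ifit1, Ifit3, Oas2, Gbp2, Zbp1 and Ifi27l2a) would not have passed the expression filter without the HOXA9 OFF libraries, so the filter itself favoured a difference in them. Among the other 16 tested genes, counted separately after the data were seen, 6 were higher and 1 was lower (43.8%, beside 21.6% of the 12124 genes that passed without HOXA9 OFF), with a median log2 fold change of 0.81. The largest changes were in genes of that first set, Zbp1 (4.80 ± 1.28, FDR 0.0308), a nucleic acid sensor, Ifit3 (4.69 ± 0.88, FDR 0.0093), which binds viral RNA with other IFIT proteins, and Ifi27l2a (3.40 ± 0.86, FDR 0.0261). These genes were low in every library, with Ifit3 at 1.06 and 1.64 CPM in HOXA9 OFF against 0.0786 and 0 CPM in control. The gene that fell was Rtp4 (-1.61 ± 0.44, FDR 0.0335), named after its values were seen. After CAF-1 suppression, 0 of the 22 were called, 4 (18.2%, beside 10.7% of all tested genes) had an unadjusted edgeR p under 0.05, and the median was 0.42.

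Neutrophils and monocytes carry Ly6c, so their markers are given beside Ly6c2. The summed level of 13 neutrophil markers was highest in HOXA9 OFF (1220 to 1850 CPM), followed by CAF-1 OFF (712 to 971 CPM) and control (228 to 289 CPM). Mmp8, neutrophil collagenase, made up 46.6% and 64.9% of the sum in CAF-1 OFF, and without it the sums were 219 and 188 CPM in control, 1800 and 1160 CPM in HOXA9 OFF, and 380 and 341 CPM in CAF-1 OFF. Of the 12 tested, 11 rose in HOXA9 OFF against control (13% of all tested genes were called higher) with a median log2 fold change of 3.91, led by S100a8 (6.55 ± 0.41, FDR 0.000322) and S100a9 (6.38 ± 0.43, FDR 0.000433), whose products form a calcium-binding complex of neutrophil cytoplasm, and Camp (6.25 ± 0.48, FDR 0.000561), the antimicrobial peptide of their granules. After CAF-1 suppression, 0 were called by edgeR against control and 6 had an unadjusted p under 0.05 (50%, beside 10.7% of all tested genes). All 12 log2 fold changes were positive there, the largest being that of Mmp8 (3.12 ± 0.37, FDR 0.0757). Mmp8 was at 70.1 and 40.5 CPM in control, 56.6 and 62.0 CPM in HOXA9 OFF, and 332 and 630 CPM in CAF-1 OFF. Of 9 tested monocyte markers, 7 rose in HOXA9 OFF, led by Csf1r, the receptor of the macrophage growth factor (5.94 ± 0.26, FDR 0.000103), Ms4a6c (3.38 ± 0.23, FDR 0.000411) and Klf4 (3.17 ± 0.70, FDR 0.0168). The chemokine receptor Ccr2 fell (-1.67 ± 0.51, FDR 0.0469), and none (0 of 9) passed in CAF-1 OFF. The summed level of the 10 monocyte markers in the tables overlapped between control (1430 to 1620 CPM) and CAF-1 OFF (1510 to 1840 CPM), which in turn overlapped HOXA9 OFF (1810 to 2920 CPM). F13a1 (907 to 2030 CPM) and Ccr2 (67.2 to 539 CPM) made up most of the sum in each library, so this overlap mainly describes them. In CAF-1 OFF against HOXA9 OFF, where Ly6c2 was not called, 10 of 12 neutrophil and 5 of 9 monocyte markers were lower, as were 12.6% of all tested genes, and 1 of each was higher. Lists of other cell types also differed between groups. The summed level of 7 erythroid and megakaryocyte markers was 29.6 and 31.2 CPM in control, 81.1 and 86.9 CPM in HOXA9 OFF, and 81.8 and 39.7 CPM in CAF-1 OFF. Of its 5 tested genes, Itga2b (1.80 ± 0.33, FDR 0.00847) and Gata1 (1.81 ± 0.45, FDR 0.0252) were called in HOXA9 OFF, where 4 of the 5 log2 fold changes were positive and that of Klf1, an erythroid transcription factor, was -1.19 ± 0.64 and not called. All 5 were positive after CAF-1 suppression, with 0 called and Pf4 at 2.09 ± 0.44 (FDR 0.199). The 5 mast cell and basophil markers summed to 206 and 167 CPM in control, 243 and 308 CPM in HOXA9 OFF, and 591 and 229 CPM in CAF-1 OFF, with 0 of 4 called against control in either group. The 4 stem cell markers summed to 266 and 246 CPM in control, 20.4 and 23.7 CPM in HOXA9 OFF, and 438 and 362 CPM in CAF-1 OFF. Nearly all of each sum was Hlf, a transcription factor of stem cells (264 and 245, 19.7 and 23.2, and 432 and 359 CPM). Mecom and Slamf1 had at most 2 reads in any library. Hlf fell in HOXA9 OFF (-3.57 ± 0.15, FDR 0.000102). After CAF-1 suppression, 0 of the 2 tested stem cell markers were called and both had an unadjusted edgeR p under 0.05, with log2 fold changes of 0.64 ± 0.13 for Hlf (FDR 0.199) and 2.09 ± 0.54 for Procr (FDR 0.276). The part of these cell types in the Ly6c2 result was not tested.

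**Figure D5:**
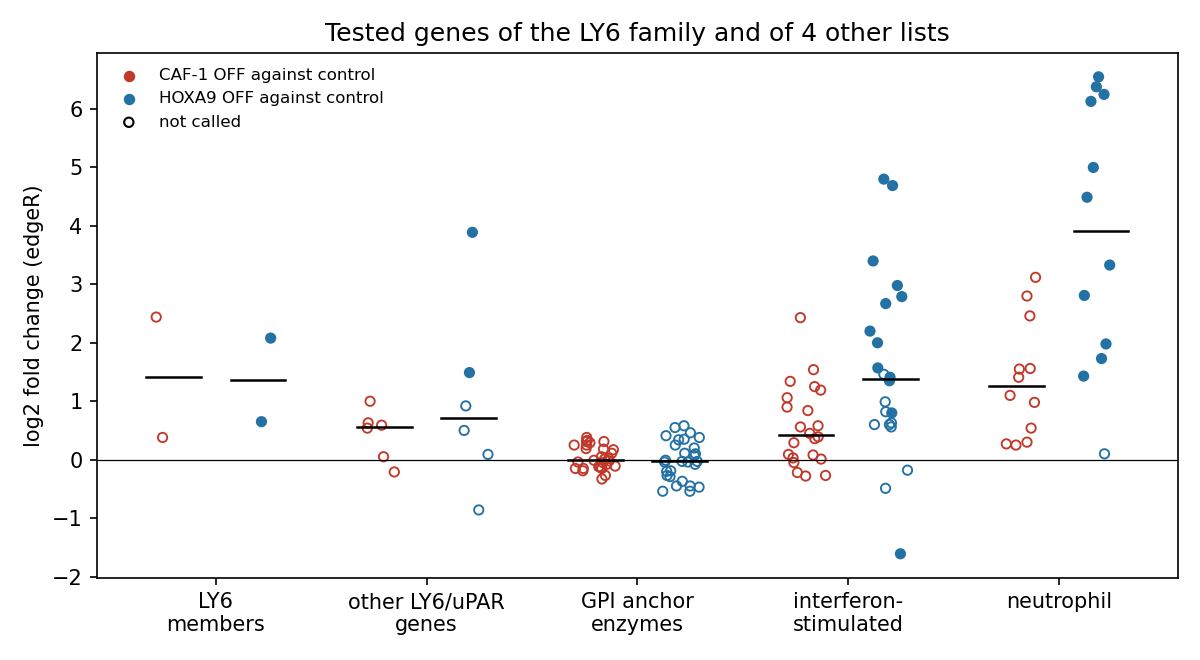
log2 fold change (y axis) of the tested LY6 members and of tested genes in 4 other lists (x axis), for CAF-1 OFF against control (red) and HOXA9 OFF against control (blue). Filled points were called, open points were not, and black lines are medians. The GPI anchor genes centre on 0 in both comparisons (medians 0.00 and -0.03), whereas 11 of 12 neutrophil genes were called higher in HOXA9 OFF.

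The genes whose levels most resembled those of the tested members were found by Pearson's r of log2 CPM over the 6 libraries, among 9613 tested genes with a mean of at least 5 CPM. For Ly6c2 they were Bcr (r = 0.993), Lbr (0.99) and Fam20b (0.989), and for Ly6e they were Rnaset2b (0.992), 1810013L24Rik (0.989) and Acss1 (0.988). With 6 libraries in 3 groups, correlations of this height are a description. Lbr, the lamin B receptor of the nuclear envelope, was at 480 and 447 CPM in control, 543 and 527 CPM in HOXA9 OFF, and 552 and 568 CPM in CAF-1 OFF, so its pattern resembled that of Ly6c2 over a far smaller range.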

How the data were processed

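RNA was measured in 6 libraries of iGMPs, 2 in each of 3 groups as given by their titles. Per the labels, the authors aligned the reads with STAR to mm9 and used HTSeq-count, and the deposited values are raw read counts per gene symbol. HTSeq-count does not count a read with several alignments. The annotation and strand setting of the counting were not given in the sources used here. The 5 tally lines of each library were kept out of the totals (the tally of alignments that were not unique was 89.59 to 106.7 per 100 gene reads).

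The analysis used edgeR 4.0.16 (R 4.3.3). Genes were kept by filterByExpr (12460 genes), scaled by TMM (factors 0.954 to 1.03) and tested with a quasi-likelihood model of all 6 libraries, called at 1.5-fold and FDR under 0.05, the cutoffs the study used. Alternatives were other scalings, DESeq2 1.42.0, the edgeR exact test, other filters and cutoffs, a replicate block and leaving out each library. Scripts were tested on simulated data. Stretches of sequence were compared with the GENCODE transcripts and genome of NCBIM37, and coding sequences were aligned with Biopython 1.88. The members and lists were chosen with earlier results of these data known.

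Named genes were all members, in the LY6/uPAR, GPI anchor and interferon lists the 3 called genes with the largest change in HOXA9 OFF against control and any called in CAF-1 OFF (0), and the 3 genes most like each tested member (Pearson's r, mean of at least 5 CPM). Marker genes and other genes of these lists were named after their values were seen. Whether replicate numbers pair cultures was not given in the labels, so the fit had no block.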

Additional observations from a re-analysis of the deposited data

Results flagged for a closer look

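Among 30 LY6/uPAR genes too low to be tested, 5 totals of more than 3 reads came from groups in which both libraries had a higher CPM than both control libraries. The same count was not made over all genes, so whether 5 exceeds the background is not known. Higher totals in which the libraries overlapped control, such as the 12 reads of Ly6a in HOXA9 OFF against 6, are not among them. Ly6g had 14 reads in HOXA9 OFF (11 and 3) against 0 in control. Ly6c1 had 16 reads in CAF-1 OFF (5 and 11) and 8 in HOXA9 OFF (5 and 3) against 4 in control, ratios of 4.38 (exact 95% Poisson interval 1.41 to 18.0) and 2.29 (0.614 to 10.4, which includes 1). Ly6f, a neighbour of Ly6g, had 22 reads in HOXA9 OFF (16 and 6) against 1 in control, a ratio of 25.2 (4.08 to 1040). Lypd6b had 19 reads in HOXA9 OFF (15 and 4) against 5 in control, a ratio of 4.36 (1.57 to 14.9). In each case the difference rests on few reads, and for Ly6g, Ly6f and Lypd6b most of them came from HOXA9 OFF replicate 1. Whether some Ly6c1 reads were Ly6c2 reads assigned to the wrong copy was not tested.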

How the results depend on the processing

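The log2 fold changes of Ly6c2 and Ly6e kept their direction under every alternative run. In CAF-1 OFF against control, 0 members were called in the reported fit and 1 (Ly6c2) by the DESeq2 Wald test, by the edgeR exact test, with no filter and with a crossed replicate block (log2 fold changes 2.45, 2.45, 2.43 and 2.47). The genes called in all went from 4 to 192, 236, 378 and 71 under those settings, 2 with the replicate block, 9 with the 4 libraries compared, 0 at 2-fold and FDR under 0.01, and 0 to 10 when 1 library was left out (0 without CAF-1 OFF replicate 2 or control replicate 1, and 1 without control replicate 2). In HOXA9 OFF against control, 2 members were called, 1 (Ly6c2) with library size alone, at 2-fold and FDR under 0.01, and without any 1 of the control or HOXA9 OFF libraries (range 1 to 2 when 1 library was left out), and 3 with no filter, which added Ly6g. All genes called there went from 2740 to 987 at 2-fold and FDR under 0.01 and to between 1602 and 2840 when 1 library was left out (1602 without control replicate 2). In CAF-1 OFF against HOXA9 OFF, 0 members were called, and all genes called went from 2755 to 948 at 2-fold and FDR under 0.01 and to between 1711 and 2718 when 1 library was left out (1711 without HOXA9 OFF replicate 1). With library size alone, the calls in HOXA9 OFF against control were 1434 higher and 1409 lower, against 1622 and 1118. A group left with 1 library was assumed to vary like the others. Apart from the stricter cutoffs and the fits with fewer libraries, the cause of these differences was not tested. Same-numbered libraries of CAF-1 OFF and control deviated in opposite directions (correlation -0.178 across genes) and those of HOXA9 OFF and control together (0.456), with 2 pairs each, so the numbers were not taken as paired. The crossed block was chosen after these were seen and gave Ly6c2 an FDR of 0.00121 in CAF-1 OFF against control and 0.0275 in CAF-1 OFF against HOXA9 OFF (0.37 ± 0.10, under 1.5-fold and not called). The replicate block gave Ly6c2 2.50 ± 0.35 in CAF-1 OFF against control, 2.09 ± 0.34 in HOXA9 OFF against control and 0.42 ± 0.33 between the OFF groups. Depth limits Ly6a, Ly6c1, Ly6g and Ly6i, with at most 11 reads in a library.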
